A study of Rattus norvegicus with 12 samples.

Results

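The 9 genes described here code for the enzymes that turn squalene into cholesterol, in the order Sqle, Lss, Cyp51, Tm7sf2, Sc4mol, Nsdhl, Ebp, Sc5dl and Dhcr7. They were found by name in a table of 34391 transcripts, which holds 11 rows for them, and for each gene the row with the highest mean level over all livers was used. Cyp51 is listed there as CP51A_RAT, and Sc4mol and Sc5dl are older names of Msmo1 and Sc5d. The 2 further rows, a second one each for Sqle and Tm7sf2, were above 0 in only 2 livers and 1 liver. They held at least 7 reads and 1 read in all, the smallest whole numbers that fit, and are not used for any comparison.

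Liver poly(A) RNA was sequenced from 12 female rats of the inbred alcohol-preferring strain iP10a, 1 library per animal, all 38 weeks old at collection. The 6 EtOH animals had had free access for 23 weeks to bottles of 10%, 20% and 30% ethanol beside water and food, and the 6 control animals to water and food only. How much ethanol each animal drank is not among the labels, so dose could not be set against level, and a single inbred strain of one sex limits the groups as a model. The values are RPKM, in which the reads of a transcript are divided by its length and by the mapped reads of the library, so that levels of different genes can be set side by side per length.

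Cholesterol is made in the endoplasmic reticulum of nearly every animal cell, and the liver is one of its main sites. Squalene is first oxidised and closed into the ring system of lanosterol, after which methyl groups are removed and double bonds moved or reduced until cholesterol is left. Transcription of the whole pathway is driven by SREBP2, a membrane-bound factor that is released when the membranes hold little sterol and that acts at promoters together with NF-Y, which binds the CCAAT box, and Sp1, which binds GC boxes.

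Since the 9 genes are known as one regulated set, start regions are shown for the 2 genes with the deepest falls among those that could be matched, Sc4mol and Dhcr7, and for the one with the smallest fall, Nsdhl. Each sequence is the 250 bases before the annotated start on the strand of the gene, from RefSeq on build GRCr8, with capitals marking every CCAAT box on either strand (ATTGG on the opposite one). The stretches lie at chr16:29746863-29747112 for Sc4mol, chrX:155817110-155817359 for Nsdhl and chr1:208444184-208444433 for Dhcr7, all on the plus strand.
Sc4mol: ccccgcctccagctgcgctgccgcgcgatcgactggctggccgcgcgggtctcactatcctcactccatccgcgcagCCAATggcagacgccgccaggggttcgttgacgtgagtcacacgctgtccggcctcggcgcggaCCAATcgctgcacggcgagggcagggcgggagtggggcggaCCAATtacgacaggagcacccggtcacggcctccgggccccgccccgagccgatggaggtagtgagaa
Nsdhl: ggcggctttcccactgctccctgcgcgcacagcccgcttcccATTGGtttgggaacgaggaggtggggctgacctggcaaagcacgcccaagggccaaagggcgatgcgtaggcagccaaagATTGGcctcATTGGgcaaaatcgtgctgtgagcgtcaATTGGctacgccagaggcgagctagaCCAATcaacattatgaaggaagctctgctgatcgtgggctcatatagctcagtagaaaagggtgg
Dhcr7: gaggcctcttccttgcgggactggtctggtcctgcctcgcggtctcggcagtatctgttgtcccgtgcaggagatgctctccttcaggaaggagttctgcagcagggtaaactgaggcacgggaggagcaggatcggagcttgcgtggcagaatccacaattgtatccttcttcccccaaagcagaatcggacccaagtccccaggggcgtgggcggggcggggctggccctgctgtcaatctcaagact

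Sc4mol had 3 CCAAT boxes in this stretch, Nsdhl 5 and Dhcr7 none. Windows from 250 bases before to 50 after the start were found for 8 of the 9 genes, and Sqle was not matched. CCAAT lay on either strand in 6 of the 8, all but those of Cyp51 and Dhcr7, against 37.5% of 33469 RefSeq promoter windows of the same length. The GC box GGGCGG lay in 7 of the 8, all but that of Nsdhl, against 33.1% of all windows. The 8 windows were 57.3% to 71.0% G and C, and windows of like composition were not compared. The sterol element TCACNCCAC lay in 0 of the 8 and in 1.12% of all windows, which says only that these letters are not in these windows. Nsdhl, with the most CCAAT boxes of the 8, had the smallest fall in level described below, and Dhcr7, with none, a fall close to that of Sc4mol with 3. This describes single genes, and a link between boxes and falls was not tested.

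Sequencing depth bears on every level below. Whole reads recovered from the steps of the RPKM values came to 2610238 to 4318141 per control liver and 3945593 to 6030028 per EtOH liver, and the EtOH libraries were the deeper ones (two-sided exact permutation test, p = 0.011). The main rows of the 9 genes rested on 52 to 2064 reads per liver. Hepatocyte markers (5 of 6 found) summed to 67994 to 96266 RPKM in the control and 76786 to 103330 RPKM in the EtOH livers. Between the groups the two-sided exact permutation test gave p = 0.12. These sums lay far above those of any other cell type listed, a comparison that was not tested. Of the 6 marker lists, those of 3 other liver cell types had an unadjusted p below 0.05, and none passed after Benjamini-Hochberg adjustment over the 6. Kupffer cell markers (4 of 5 found) summed to 67.1 to 108 RPKM against 95.4 to 126 RPKM (exact p = 0.019, adjusted p = 0.058). Stellate cell markers (5 of 5 found) came to 4.44 to 7.98 RPKM in the control and 7.05 to 11.1 RPKM in the EtOH livers (exact p = 0.011, adjusted p = 0.058), and endothelial markers (2 of 4 found) to 21.0 to 27.1 and 22.9 to 33.1 RPKM (exact p = 0.041, adjusted p = 0.082). Cholangiocyte markers (3 of 4 found; 4.27 to 8.16 and 3.69 to 7.67 RPKM, exact p = 0.81) and leukocyte markers (3 of 3 found; 0.864 to 5.88 and 2.80 to 6.72 RPKM, exact p = 0.16) had larger p values. None of the markers found was at 0 in all livers. The part of depth and of these markers in the results was not tested, and in bulk liver fewer cells of a type and less RNA per cell cannot be told apart.

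In RPKM as deposited, without normalization between livers, all 9 genes had lower mean levels in the EtOH livers. For each of them the highest EtOH liver was below the lowest control liver, and this separation was not examined after normalization. Such separation in this direction was found in 2.43% of the 21718 transcripts tested, and in 7.60% of the 6001 that averaged 5 RPKM or more. With limma on quantile-normalized log2(RPKM + 0.5) and Benjamini-Hochberg adjustment over all tested transcripts, 8 of the 9 were called lower at an adjusted p below 0.05, against 1.29% of all transcripts and 3.72% of these 6001. Nsdhl was not called. Percent falls below are from means of RPKM as deposited. The log2 fold changes from limma are on the quantile-normalized scale, where each of the 9 lay nearer to 0 than as deposited. Over all transcripts 281 were called lower and 245 higher, and 648 and 126 when the livers were not normalized to each other. The summed level of the 9 genes was 1052 ± 155 RPKM in the control livers and 546 ± 38.5 RPKM in the EtOH livers (SD, n = 6 each), which is 1.93 times lower. In each control liver the sum lay between 821 and 1304 RPKM, and in each EtOH liver between 484 and 594 RPKM, so the sums did not overlap. The plot of levels by liver shows the values of all 9 genes.

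**Figure D1:**
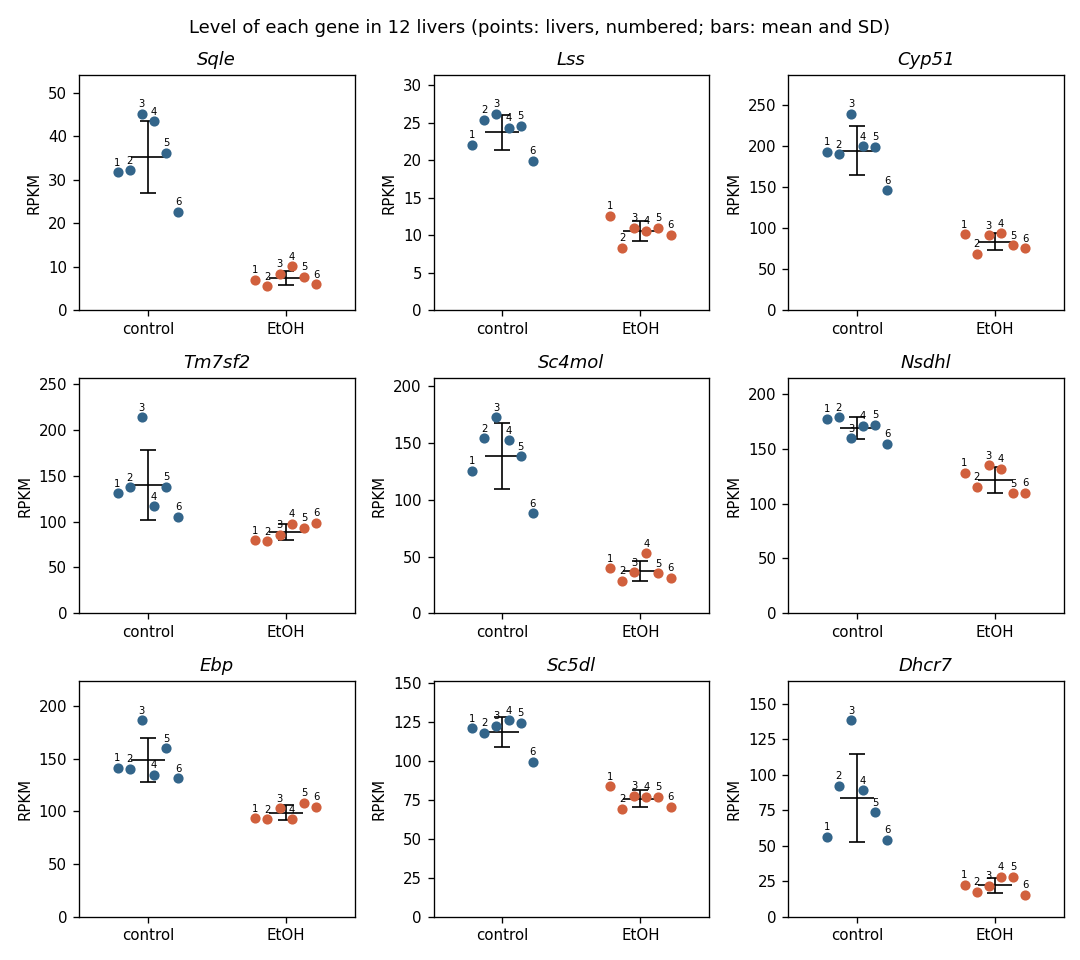
RPKM as deposited of each gene (linear axis from 0) in 6 control (blue) and 6 EtOH (orange) livers. Points are numbered by animal, with horizontal bars for the mean and whiskers for 1 SD. In every panel the 6 EtOH livers lie below the 6 control livers, with the widest gap for Sqle (the lowest control liver is 2.25 times the highest EtOH liver) and the narrowest for Tm7sf2 (1.06 times).

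Sqle codes for squalene monooxygenase, which puts the first oxygen on squalene and is a control point of the pathway. Its transcript (chromosome 7, positions 96096766 to 96111752 as the authors list them) ranged from 22.7 to 45.1 RPKM in the control livers, with a median of 34.2, and from 5.46 to 10.1 RPKM in the EtOH livers, with a median of 7.33. The lowest control liver, animal 6, was still 2.25 times above the highest EtOH liver, the widest gap among the 9 genes. Mean levels were 35.2 ± 8.31 and 7.41 ± 1.70 RPKM (SD, n = 6 each), a fall of 78.9%. The log2 fold change was -2.04 (standard error 0.16, 95% confidence interval -2.39 to -1.68, adjusted p = 2.1e-04 from limma). This was the 11th lowest log2 fold change of all tested transcripts, on 1683 reads over the control and 514 over the EtOH livers.

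Lss codes for lanosterol synthase, which closes oxidised squalene into the first sterol. Its levels (chromosome 20, positions 12507574 to 12534635) were among the lowest of the 9 genes, at 20.0 to 26.2 RPKM in the control livers (median 24.5) and 8.29 to 12.5 RPKM in the EtOH livers (median 10.8). The means of 23.8 ± 2.32 and 10.6 ± 1.40 RPKM (SD, n = 6 each) differ by 55.5%. Control livers varied little in Lss, with a coefficient of variation of 9.78%. The log2 fold change of -1.003 (standard error 0.085, 95% confidence interval -1.19 to -0.82) was called (adjusted p = 2.4e-04 from limma).

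Cyp51, the cytochrome P450 that starts the removal of a methyl group from lanosterol, was the most abundant of the 9 transcripts in the control livers. It lies on chromosome 4, positions 26752356 to 26770318, as listed. RPKM values ran from 146 to 239 in the control livers (median 196) and from 68.8 to 93.4 in the EtOH livers (median 84.8). Even control animal 6, the lowest, was 1.56 times the highest EtOH liver. Group means were 194 ± 29.6 and 83.3 ± 10.4 RPKM (SD, n = 6 each), a fall of 57.1% (log2 fold change -1.06, standard error 0.093, 95% confidence interval -1.26 to -0.85, adjusted p = 2.9e-04 from limma). In RPKM this was the largest loss of the set, 111 of the summed 507 RPKM or 21.9%.

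Tm7sf2 codes for a sterol reductase that removes the double bond left by Cyp51, a reaction also carried out by Lbr, a protein of the inner nuclear membrane. Its listed position is chromosome 1, 208700770 to 208705093. Control livers ranged from 105 to 214 RPKM (median 134) and EtOH livers from 78.7 to 98.9 RPKM (median 89.4). In RPKM as deposited the groups were separated by the narrowest margin of the set, since the lowest control liver was 1.06 times the highest EtOH liver. Control animal 3 stood far above the other controls, of which the next had 138 RPKM. Means were 140.2 ± 38.3 and 89.0 ± 9.0 RPKM (SD, n = 6 each), a fall of 36.6%. The log2 fold change was -0.47 (standard error 0.11, 95% confidence interval -0.71 to -0.24, adjusted p = 0.041 from limma). This call was lost with the animal number as a block (adjusted p = 0.13 from limma), without a mean-variance trend (0.063), on the square-root scale (0.098 with and 0.096 without a quantile step), and when any 1 liver other than control 3 or control 6 was left out (0.053 to 0.092). Without control 3 the log2 fold change was -0.38 (adjusted p = 0.022 from limma) and without control 6 it was -0.53 (0.020).

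Sc4mol codes for methylsterol monooxygenase, which oxidises a pair of methyl groups so that they can be removed. Its transcript (chromosome 16, positions 26698324 to 26716247) lay between 87.9 and 173 RPKM in the control livers, with a median of 145, and between 28.7 and 52.8 RPKM in the EtOH livers, with a median of 35.6. All EtOH livers were well below the lowest control liver, which was 1.67 times the highest of them. Mean levels fell by 73.1%, from 138 ± 29.4 to 37.3 ± 8.47 RPKM (SD, n = 6 each). The change was called, with a log2 fold change of -1.71 (standard error 0.15, 95% confidence interval -2.04 to -1.38, adjusted p = 2.9e-04 from limma). Together with Cyp51 and Dhcr7, Sc4mol made up 54.0% of the summed loss in RPKM.

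Nsdhl codes for the dehydrogenase that works on the products of Sc4mol. On the X chromosome, positions 158923025 to 158954913, it ranged from 154 to 179 RPKM in the control livers (median 171) and from 109 to 135 RPKM in the EtOH livers (median 122). The groups did not overlap in RPKM as deposited, with the lowest control liver 1.15 times the highest EtOH liver (two-sided exact permutation test, p = 0.0022). Means were 169 ± 9.82 and 122 ± 11.5 RPKM (SD, n = 6 each). The log2 fold change of -0.32 (standard error 0.085, 95% confidence interval -0.51 to -0.14) did not pass over all transcripts (adjusted p = 0.072 from limma). It did pass without normalization between livers (log2 fold change -0.48, adjusted p = 0.0030), with median scaling (-0.38, 0.016), among transcripts averaging 1 RPKM or more (-0.32, 0.037), with limma voom on recovered reads (-0.33, 0.048), on the square-root scale without a quantile step (adjusted p = 0.0088) and without control animal 3 (-0.37, 0.039). Whether Nsdhl is counted as changed therefore depends on the scaling between livers and on which transcripts are tested with it.

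Ebp codes for the isomerase that shifts the ring double bond, and takes its name from a drug, emopamil, that binds it. Its values (X chromosome, positions 26331199 to 26337539) were 131 to 187 RPKM in the control livers, with a median of 141, and 92.4 to 108 RPKM in the EtOH livers, with a median of 98.3. EtOH livers lay close together, with a coefficient of variation of 6.95%. The means of 149 ± 20.8 and 98.9 ± 6.88 RPKM (SD, n = 6 each) differ by 33.7% (log2 fold change -0.43, standard error 0.056, 95% confidence interval -0.55 to -0.31, adjusted p = 0.0029 from limma).

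Sc5dl codes for the desaturase that makes the substrate of Dhcr7. It is listed on chromosome 8, positions 45229993 to 45238924. Levels ran from 99.4 to 126 RPKM in the control livers (median 122) and from 69.2 to 83.7 RPKM in the EtOH livers (median 77.0). Control animal 6, at the lower end, stood apart from the other controls, of which the next had 118 RPKM, and was still above all EtOH livers. The fall of 36.1%, from 119 ± 9.88 to 75.9 ± 5.27 RPKM (SD, n = 6 each), was called (log2 fold change -0.48, standard error 0.063, 95% confidence interval -0.62 to -0.35, adjusted p = 0.0029 from limma).

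Dhcr7 codes for the reductase of the last ring double bond, the enzyme missing in Smith-Lemli-Opitz syndrome. Its transcript (chromosome 1, positions 204245562 to 204258913) was the most variable of the set in the control livers, at 54.1 to 138 RPKM with a median of 81.2. EtOH livers had 15.3 to 28.0 RPKM, with a median of 21.9. In spite of the spread among controls, the lowest of them was 1.93 times the highest EtOH liver. Means fell by 73.7%, from 83.9 ± 31.0 to 22.0 ± 5.25 RPKM (SD, n = 6 each), and the log2 fold change was -1.71 (standard error 0.21, 95% confidence interval -2.16 to -1.25, adjusted p = 0.0022 from limma).

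On log2 values as deposited, the exact permutation test on each gene by itself gave p = 0.0022 for all 9 (two-sided). This is the smallest value that 6 livers against 6 can give and so does not rank the genes. Sqle, Lss, Cyp51, Sc4mol, Ebp, Sc5dl and Dhcr7 were called in all 23 alternative settings.

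The size of the fall was uneven along the pathway. In RPKM as deposited, Sqle, Sc4mol and Dhcr7, at the start, the middle and the end, lost 73.1% to 78.9% of their mean level. Lss and Cyp51 lost 55.5% and 57.1%, and Tm7sf2, Nsdhl, Ebp and Sc5dl lost 28.0% to 36.6%. For Tm7sf2, Nsdhl, Ebp and Sc5dl the log2 fold changes as deposited were -0.62, -0.48, -0.58 and -0.64. After quantile normalization they were -0.47, -0.32, -0.43 and -0.48. The plot of log2 fold change by step shows the 3 deep falls separated by shallower ones.

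**Figure D2:**
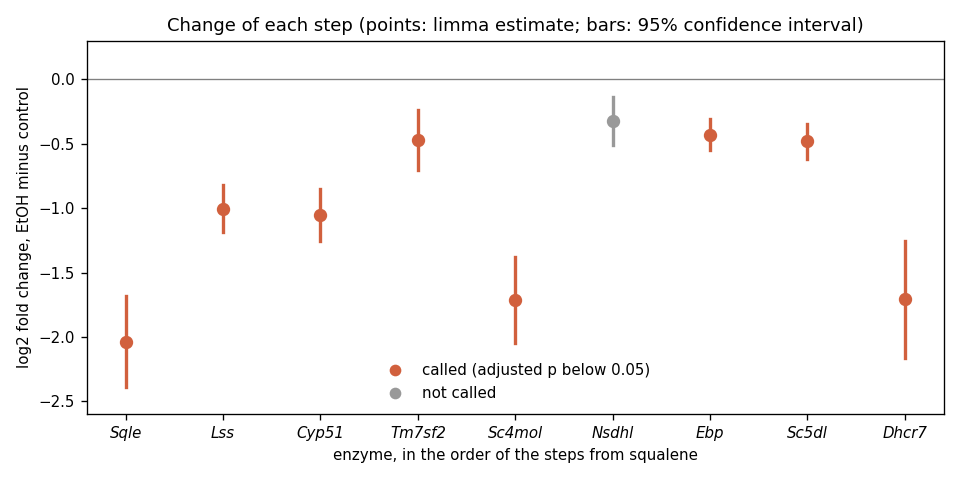
Log2 fold change (EtOH minus control, limma) of the 9 genes in step order, with 95% confidence intervals. Orange points are called and the grey point, Nsdhl, is not. Sqle (-2.04), Sc4mol (-1.71) and Dhcr7 (-1.71) lie lowest, and Nsdhl (-0.32) lies nearest to 0.

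To see whether neighbouring steps changed by different amounts, the log2 ratio of each gene to the next was taken within each liver, where scaling between livers cancels, and compared between the groups. Of the 8 neighbouring pairs 5 differed (two-sided exact permutation tests, Benjamini-Hochberg adjusted over the 8 pairs). The ratio of Sqle to Lss turned over. Log2 ratios ran from 0.18 to 0.82 in the control livers and from -0.81 to -0.07 in the EtOH livers, a difference of -1.03 (95% confidence interval -1.36 to -0.70, exact p = 0.0022, adjusted p = 0.0043). So Sqle lay above Lss in all 6 control livers and below it in all 6 EtOH livers.

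Tm7sf2 and Sc4mol had nearly equal levels in the control livers, with a mean log2 ratio of 0.01 ± 0.26 (SD, n = 6), and in the EtOH livers Tm7sf2 was higher in every liver, at 1.26 ± 0.28 (difference 1.25, 95% confidence interval 0.90 to 1.60, exact p = 0.0022, adjusted p = 0.0043). Sc4mol over Nsdhl moved the other way, from -0.31 ± 0.31 to -1.71 ± 0.24 (SD, n = 6 each; difference -1.40, 95% confidence interval -1.75 to -1.04, exact p = 0.0022, adjusted p = 0.0043). Sc5dl over Dhcr7 rose from 0.57 ± 0.45 to 1.79 ± 0.29 (SD, n = 6 each; difference 1.22, 95% confidence interval 0.73 to 1.71, exact p = 0.0022, adjusted p = 0.0043). These 3 pairs set Sc4mol and Dhcr7 apart from the genes beside them, and in none of the 3 did the groups overlap. Cyp51 over Tm7sf2 fell by a smaller amount, -0.59 (95% confidence interval -0.86 to -0.32), and its groups overlapped (exact p = 0.0043, adjusted p = 0.0069).

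The other 3 neighbouring pairs did not pass. The interval of the difference ran from -0.08 to 0.23 for Lss over Cyp51 (difference 0.07, exact p = 0.29, adjusted p = 0.39), from -0.17 to 0.38 for Nsdhl over Ebp (0.11, exact p = 0.42, adjusted p = 0.48) and from -0.15 to 0.27 for Ebp over Sc5dl (0.06, exact p = 0.53). These intervals do not show that the genes of a pair changed alike. The plot of ratios shows all 8 pairs.

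**Figure D3:**
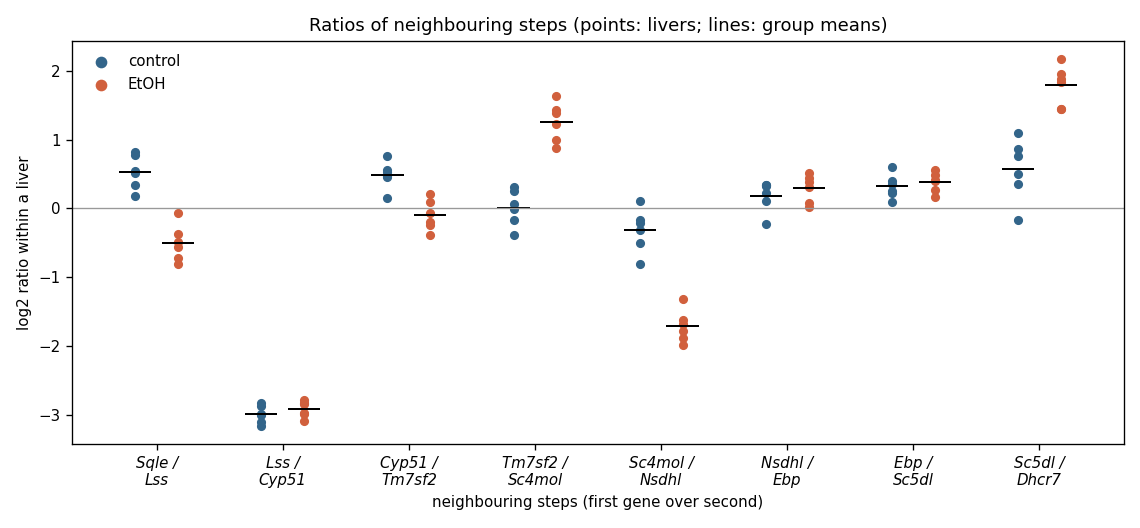
Log2 ratio of each gene to the next one in step order within each liver (points, control blue, EtOH orange; black lines, group means; linear axis of log2 values). Groups are apart for Sqle over Lss, Tm7sf2 over Sc4mol, Sc4mol over Nsdhl and Sc5dl over Dhcr7, and lie on each other for Lss over Cyp51, Nsdhl over Ebp and Ebp over Sc5dl.

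All 36 pairs were then compared in the same way, a choice made after the values had been seen, and 28 differed at an adjusted p below 0.05 over the 36 (two-sided exact permutation tests). The 8 that did not pass were Sqle with Dhcr7 (difference -0.30, 95% confidence interval -0.63 to 0.03), Sc4mol with Dhcr7 (-0.01, -0.34 to 0.32), Lss with Cyp51, Tm7sf2 with Nsdhl (-0.14, -0.54 to 0.25), Tm7sf2 with Ebp (-0.04, -0.24 to 0.17), Tm7sf2 with Sc5dl (0.02, -0.31 to 0.35), Nsdhl with Ebp, and Ebp with Sc5dl. Sqle fell more than Sc4mol (-0.29, 95% confidence interval -0.48 to -0.10, exact p = 0.015, adjusted p = 0.020), and Nsdhl fell less than Sc5dl (0.17, 95% confidence interval 0.03 to 0.30, exact p = 0.028, adjusted p = 0.036).

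The order of the mean levels was not the same in both groups. In the control livers the mean levels ran from Cyp51 (194 RPKM) over Nsdhl, Ebp, Tm7sf2, Sc4mol, Sc5dl and Dhcr7 to Sqle (35.2 RPKM) and Lss (23.8 RPKM), and the ranges of neighbours in this order overlapped except between Dhcr7 and Sqle. In the EtOH livers Nsdhl (122 RPKM) came first, then Ebp, Tm7sf2, Cyp51, Sc5dl, Sc4mol, Dhcr7, Lss (10.6 RPKM) and Sqle (7.41 RPKM). There the ranges of Nsdhl and Ebp, Sc5dl and Sc4mol, Sc4mol and Dhcr7, and Dhcr7 and Lss did not overlap. Those of Lss and Sqle overlapped although Lss was above Sqle in all 6 livers, and the remaining neighbours overlapped with 4 or 5 of the 6 livers in this order. As a share of the summed level, Sc4mol went from 13.1% ± 1.37 to 6.78% ± 1.11, Dhcr7 from 7.80% ± 1.78 to 4.01% ± 0.784 and Sqle from 3.32% ± 0.464 to 1.35% ± 0.222, while Nsdhl went from 16.3% ± 2.24 to 22.3% ± 1.53 and Ebp from 14.2% ± 1.19 to 18.2% ± 1.74 (SD, n = 6 each). Cyp51 went from 18.4% ± 0.624 to 15.2% ± 0.994 of the sum.

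Genes that fell more also varied more from liver to liver within a group. Over the 9 genes, the log2 fold change had a Pearson r of -0.71 (Spearman rho -0.68) with the SD of the log2 level among control livers and of -0.95 (rho -0.85) with that among EtOH livers. This is given as a description over genes that share their livers. Fold change and SD were taken from the same livers. Read numbers also differed between the genes, with as few as 52 reads in a liver for Sqle and 856 for Nsdhl. Their part in this relation was not tested. The SD among control livers was 0.50 for Dhcr7, 0.36 for Sqle and 0.34 for Sc4mol, but also 0.35 for Tm7sf2, and 0.08 for Nsdhl. With the control level the r was 0.47 (rho 0.52), and with the place in the pathway 0.30 (rho 0.35).

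Within a group, livers that were high in one of the genes tended to be high in others. On log2 values as deposited, without normalization between livers, the 36 pairs of genes had a median Pearson r of 0.75 across the 6 control livers. Of these pairs 33 were positive. Across the 6 EtOH livers the median was 0.51, with 30 positive. On quantile-normalized values the medians were 0.52 in the control and 0.41 in the EtOH livers. For comparison, again as deposited, the median over all pairs of the 6001 transcripts averaging 5 RPKM or more was 0.072 and 0.073. Of those pairs, 7.04% in the control and 19.0% in the EtOH livers reached the median of the 9 genes as deposited. No single pair passed after adjustment over the 72 (two-sided exact permutation tests), while 11 control and 6 EtOH pairs had an unadjusted p below 0.05. The share of all pairs of the 6001 transcripts at that threshold was not taken, so these counts stand without a background.

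**Figure D4:**
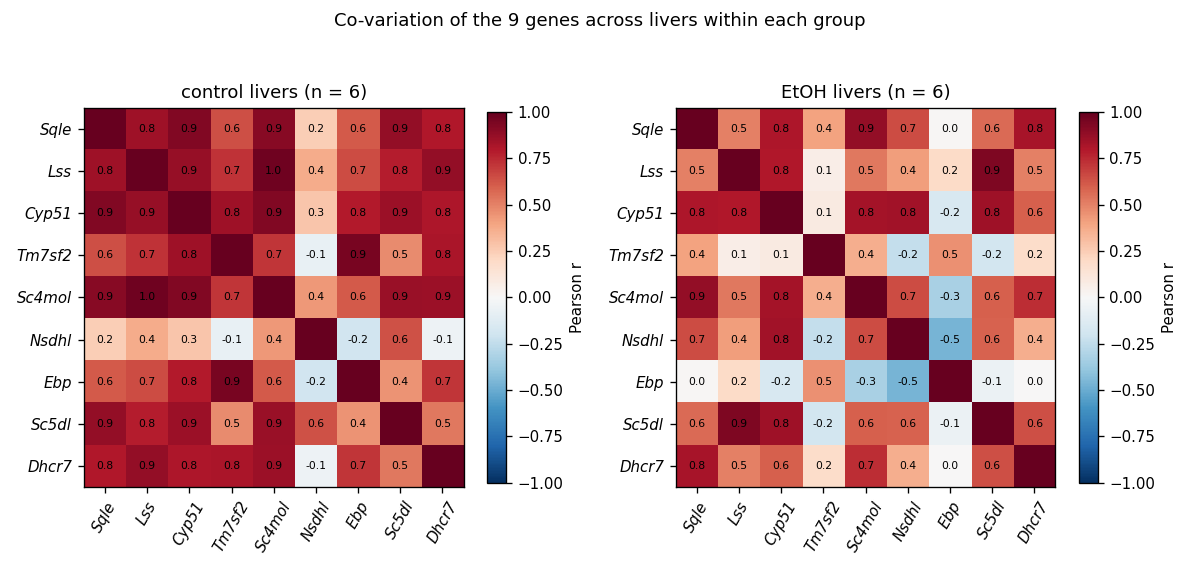
Pearson r between the log2 levels as deposited of each pair of genes across the 6 control livers (left) and the 6 EtOH livers (right), on a colour scale from -1 to 1 with r written in each cell. Most cells are red, with medians of 0.75 and 0.51, and the lowest cell in both groups is Nsdhl with Ebp (-0.19 and -0.46).

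The closest pair in the control livers was Lss with Sc4mol (r = 0.97, exact permutation p = 0.0042, adjusted p = 0.075 over 72; rho = 0.94, exact p = 0.017, adjusted p = 0.17; r = 0.83 without the 2 livers farthest from the median of Lss). In the EtOH livers it was Lss with Sc5dl (r = 0.93, exact permutation p = 0.0028, adjusted p = 0.075; rho = 0.94, exact p = 0.017, adjusted p = 0.17; r = 0.93 without the 2 farthest livers). Nsdhl with Ebp was the lowest pair in both groups. Its r was -0.19 in the control livers (exact permutation p = 0.75, adjusted p = 0.85; rho = 0.20, exact p = 0.71, adjusted p = 0.84; r = -0.27 without the 2 farthest livers) and -0.46 in the EtOH livers (exact permutation p = 0.26, adjusted p = 0.44; rho = -0.49, exact p = 0.36, adjusted p = 0.61; r = -0.71 without the 2 farthest livers).

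The pairs were also described by the size of the fall, in a grouping made after the values had been seen and not tested. Among Sqle, Lss, Cyp51, Sc4mol and Dhcr7 the 10 pairs had a median r of 0.87 in the control livers (0.80 to 0.97) and 0.77 in the EtOH livers (0.51 to 0.88). Among Tm7sf2, Nsdhl, Ebp and Sc5dl the 6 pairs had a median of 0.46 (-0.19 to 0.95) and -0.12 (-0.46 to 0.59). The 20 pairs between these sets had a median of 0.68 (-0.05 to 0.88) and 0.38 (-0.33 to 0.93), above that within the second set. Nsdhl in the control livers (median r with the 8 other genes 0.26) and Ebp in the EtOH livers (-0.03) stood farthest from the rest.

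A few livers carried much of this co-variation, as the plot of each liver's position within its group shows. Control animal 6 had the lowest level of all 9 genes among the controls and control animal 3 the highest of 7, all but Nsdhl and Sc5dl. EtOH animal 2 had the lowest level of 7 genes, all but Nsdhl and Dhcr7. When the 2 livers farthest from the median were left out pair by pair, the median r dropped to 0.0092 in the control and 0.26 in the EtOH livers. Without control animal 6 alone the control median was 0.55, and without control animal 3 alone it was 0.76. Without EtOH animal 2 alone the EtOH median was 0.29. Without both control animals 3 and 6, a setting added after the values had been seen, the control median was 0.0070. Leaving out the livers at both ends also narrows the range, which by itself can lower r, and this was not tested. Sequencing depth was set beside these levels. The mean standardized level of the 9 genes had an r of -0.59 with the recovered reads in the control livers (exact permutation p = 0.21, adjusted p = 0.21; rho = -0.14, exact p = 0.80, adjusted p = 0.80; r = -0.50 without the 2 farthest livers) and of 0.66 in the EtOH livers (exact permutation p = 0.13, adjusted p = 0.21; rho = 0.89, exact p = 0.033, adjusted p = 0.067; r = 0.74 without them). Neither relation passed after adjustment. Control animal 6 was the deepest control library, with 4318141 reads.

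**Figure D5:**
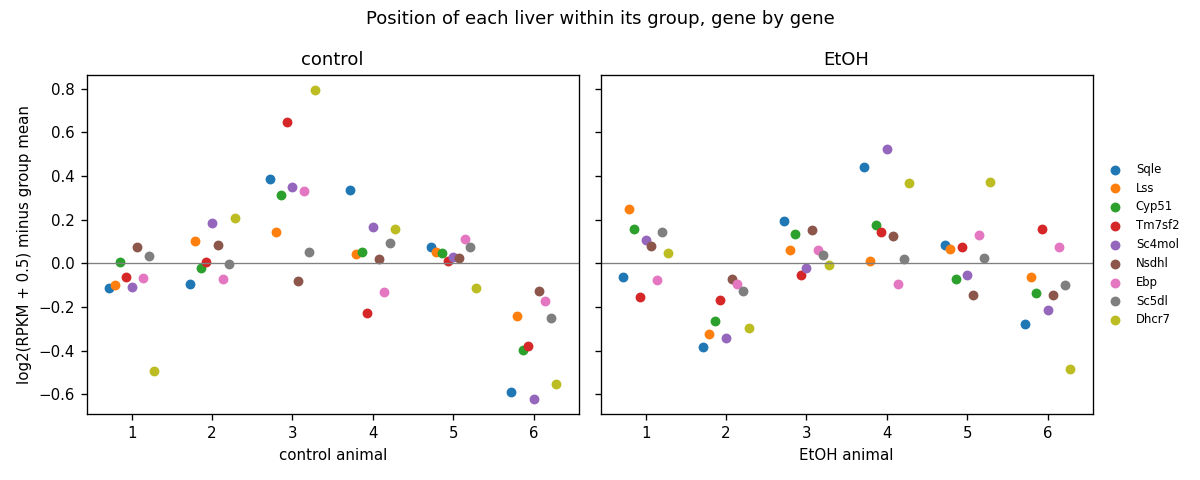
Log2(RPKM + 0.5) of each gene minus its group mean, for each control animal (left) and each EtOH animal (right), with one colour per gene. All 9 points of control animal 6 and of EtOH animal 2 lie below 0, and 8 of the 9 points lie above it for control animals 3 and 5 and for EtOH animal 4.

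Transcripts outside the set that followed it most closely from liver to liver were found over the 12 livers, after each gene had been centred on its group mean, among the same 6001 transcripts, whose median r with the mean of the 9 genes was 0.18. The levels were as deposited, without normalization between livers. The highest r was that of Acat3 (0.94), an acetyl-CoA acetyltransferase. Psma6 (0.91), a subunit of the proteasome, Def8 (0.90) and Ccdc72 (0.87) came among the next. Centring takes out the difference between the groups, and the fold changes of these 4 transcripts between the groups were unlike each other. The log2 fold change was -1.72 for Acat3 (standard error 0.16, adjusted p = 4.7e-04 from limma), -0.21 for Psma6 (0.041, 0.026), -0.29 for Def8 (0.074, 0.061) and 0.01 for Ccdc72 (0.10, 0.98). That of Acat3 was close to those of Sc4mol and Dhcr7. Of the 9 genes themselves, which are part of the mean, Cyp51 was closest (0.97) and Nsdhl least close (0.47).

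The other genes of the pathway were taken from short lists by role. Of the 8 enzymes from acetyl-CoA derivatives to squalene, 7 were found by name and all 7 were called lower, against 1.29% of all tested transcripts. Their median log2 fold change was -1.20, against 0.0002 over all tested transcripts and -1.003 over the 9 genes. They ran from -1.94 for Hmgcs1, the synthase of HMG-CoA (231.6 ± 53.0 RPKM in the control and 54.7 ± 15.8 RPKM in the EtOH livers, SD, n = 6 each, adjusted p = 5.1e-04 from limma), to -0.56 for Pmvk, a kinase of the mevalonate steps (46.1 ± 10.8 and 27.7 ± 3.55 RPKM, adjusted p = 0.025 from limma). Of the 3 further enzymes that act between lanosterol and cholesterol, 2 were called lower, against the same 1.29%. Hsd17b7, which works beside Nsdhl on the removal of methyl groups, had a log2 fold change of -1.03 (9.69 ± 2.28 and 4.21 ± 1.32 RPKM, SD, n = 6 each, adjusted p = 0.020 from limma). Lbr, which shares the reaction of Tm7sf2, was low and not called (1.70 ± 0.56 and 2.17 ± 0.655 RPKM, SD, n = 6 each, log2 fold change 0.29 with a standard error of 0.24, limma adjusted p = 0.65).

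Genes for the electron donors and accessory proteins of the sterol enzymes, such as cytochrome b5 and its reductase, were described in the same way. None of the 9 was called by limma, against 1.29% of all tested transcripts called lower. Of the 9, 5 had an unadjusted limma p below 0.05, and the share of all transcripts at that threshold was not taken, so this count stands without a background. In RPKM as deposited, 2 of the 9 had every EtOH liver below every control liver. This was so for 2.43% of all tested transcripts and 7.60% of those averaging 5 RPKM or more. The median log2 fold change of the 9 was -0.14. They ran from -0.37 for Erg28, a scaffold of the demethylation enzymes listed as RGD1310769 (48.3 ± 6.09 and 34.0 ± 6.77 RPKM, SD, n = 6 each, adjusted p = 0.11 from limma), to 0.10 for Scp2, a sterol carrier (433 ± 15.4 and 428 ± 31.0 RPKM, SD, n = 6 each, adjusted p = 0.38 from limma), whose sign turns without normalization between livers (-0.02) and with voom on recovered reads (-0.03). The count called lower among these 9 was 4 without normalization between livers, 1 with median scaling and 1 with voom on recovered reads. Of all 21718 transcripts, 648, 337 and 278 were called lower in these settings.

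Among the 7 genes that control SREBP, Srebf2 and Srebf1, which code for the factors themselves, were called lower and Insig2 was called higher. The other 4 were not called, and over all 21718 tested transcripts 281 were called lower and 245 higher. Srebf2 had a log2 fold change of -0.46 (standard error 0.085, adjusted p = 0.019 from limma) and Srebf1 one of -1.22 (0.26, 0.030), so that Srebf2 moved about as far as Sc5dl and Tm7sf2. Insig2, which holds SREBP in the endoplasmic reticulum, lay at 63.9 ± 6.27 and 71.96 ± 8.09 RPKM (SD, n = 6 each) with overlapping groups (log2 fold change 0.32 with a standard error of 0.075, limma adjusted p = 0.046). That call was lost without normalization between livers (0.17, adjusted p = 0.33), with median scaling (0.26, 0.099) and with voom (0.29, 0.067). With the animal number as a block none of the 3 was called by limma (adjusted p = 0.067 to 0.11).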

How the data were processed

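Per the labels and the study's methods, the authors sequenced poly(A) RNA in 101-nucleotide paired-end reads, mapped it with CLCbio Genomics Workbench and deposited RPKM values per liver, with no further transformation. The genome build was not given in the sources used here, and positions are those listed. The deposited columns of the authors' own comparison (fold change, statistic, p and FDR values) were not used. RPKM values of all 21718 transcripts above 0 in at least 1 liver stood in ratios of whole reads within 0.01 of a read, from which reads were recovered. The smallest whole numbers that fit were taken. A transcript above 0 in 1 liver always fits, so for transcripts above 0 in few livers this is no check and the reads are minimum counts.

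Groups were compared with limma 3.58.1 in R 4.3.3, on log2 values (pseudocount 0.5, no filter on low values) that were quantile normalized, with a mean-variance trend. Fold changes are on that scale, which understates changes of low transcripts. Single values, ratios and correlations were tested with two-sided exact permutation tests (Python 3.11.15, numpy 2.4.6, scipy 1.17.1), on log2 values as deposited. The intervals of the ratios assume normal errors. The procedure was tested on simulated data. Genes named are the 9 enzymes, the largest and smallest changes of each list (for SREBP control also Srebf2, chosen after its value was seen), the 5 transcripts most like the set, and the closest and least close pairs. Some genes that the rule takes are not reported here and remain in the counts. The members and lists were chosen with earlier results of these data known. Alternatives were pseudocounts of 0.1 and 1, other scalings between livers, the square-root test of the study's methods, a minimum mean RPKM of 1, no trend, voom on recovered reads, the animal number as a block, and each liver left out. All 36 ratios, and settings without control 6 and EtOH 2 or without control 3 and control 6, were added after seeing the data. RefSeq GRCr8 tables gave the promoter windows. Reads are not independent molecules, so their numbers cover counting error only.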

Additional observations from a re-analysis of the deposited data

Results flagged for a closer look

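Among the 18 sets of 6 livers (9 genes in 2 groups), 2 held a liver far from the others, with a gap to the next liver above Dixon's 95% critical value for 6 samples. Chance gives about 1 in 20 sets. Tm7sf2 in control animal 3 had 214 RPKM, and the next control liver 138 RPKM, a gap of 0.699 of the range. Sc5dl in control animal 6 had 99.4 RPKM, and the next control liver 118 RPKM, a gap of 0.705 of the range. The log2 fold change of Tm7sf2 was -0.47 with all livers and -0.38 without control animal 3.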

How the results depend on the processing

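The count of the 9 genes called was 7 to 9 in all 23 alternatives, each log2 fold change kept its sign in all of them, and only the calls of Tm7sf2 (lost in 15) and Nsdhl (gained in 6) changed. The 5 neighbouring ratios that differed stayed 5 with pseudocounts of 0 and 1 and with each liver left out. With the animal number as a replicate block 7 genes were called, and 0 of the 8 ratios passed, since the paired sign-flip test of 6 differences cannot go below 0.031, which adjusts to 0.050 for the 5. Same-numbered animals did not vary together (correlations -0.068 to 0.038, 1 of 6 controls closest to its own number), so the numbers are not taken as a pairing. The median correlation in the control livers was 0.63 with Spearman's rho, 0.52 on quantile-normalized values, 0.0070 without control 3 and control 6, and 0.55 to 0.84 with each liver left out. In the EtOH livers it was 0.29 to 0.61 with each liver left out. Leaving out control 6 and EtOH 2 together left 7 genes called (Tm7sf2 at a limma adjusted p of 0.051). Over all transcripts limma called 526, against 113 with the replicate block, 292 without control 6 and EtOH 2, and 860 of the 11086 averaging 1 RPKM or more. The cause of these changes was not tested. Depth limits Sqle and Lss most, with as few as 52 and 97 reads in a liver.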
